A study of Mus musculus with 11 samples.

Results

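The 9 genes described here make, move and store monoamines: the vesicular transporters Slc18a2 and Slc18a1, the plasma membrane transporters Slc6a4, Slc6a3 and Slc6a2, and the enzymes Tph1, Tph2, Th and Ddc. They were taken by symbol from 25802 genes and 24391 promoters with DNA methylation values, together with every CpG island and every 5000 bp tile that overlapped a promoter or gene by at least 1 bp. This gave 83 regions: 7 promoters, 9 gene regions, 5 CpG islands and 62 tiles. A promoter comprised the 1500 bp before and the 500 bp after the gene start in the files' annotation. Ddc and Tph2 had no promoter row. The set was chosen by the amphetamine and control means of the Slc18a2 promoter, known to be higher after amphetamine, so every value of the treatment comparison is given here as a description without a test.

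Monoamines are made from aromatic amino acids. Tryptophan hydroxylase (Tph1 outside the brain and Tph2 mainly in neurons) starts serotonin (5-HT) synthesis, tyrosine hydroxylase (Th) starts catecholamine synthesis, and aromatic amino acid decarboxylase (Ddc) completes serotonin and dopamine. Vesicular monoamine transporters (Vmat2 from Slc18a2, Vmat1 from Slc18a1) load the amines into secretory vesicles, and the transporters of serotonin (Sert, Slc6a4), dopamine (Dat, Slc6a3) and noradrenaline (Net, Slc6a2) return them from the extracellular space. Amphetamine is a substrate of the plasma membrane transporters and also acts on vesicular storage. Pancreatic β cells make and store serotonin. Methylated CpG sites are common in gene bodies, and CpG-rich promoters of the kind known as CpG islands are mostly free of methylation.

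DNA methylation was measured by reduced representation bisulfite sequencing (RRBS) in pancreas of wild-type C57BL/6N mice at postnatal day 0. RRBS reads the CpG sites close to the cutting sites of a restriction enzyme, here MspI (CCGG) and TaqI (TCGA). The 5 Amphetamine mice (3 females, 2 males) came from dams injected with amphetamine at 10 mg/kg on embryonic days 14.5, 15.5 and 16.5, and the 6 Saline mice (3 females, 3 males) from control dams given saline. The labels do not tie mice to litters, so that the spread between mice may include littermates. Deposited values are the mean, SD, lowest and highest mouse of each group, and values per mouse were not analysed here. Whole pancreas was used, in which a change of methylation within cells and a change in the mix of cells cannot be told apart.

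Over the tables, the median coverage of a promoter was 230.2 in Amphetamine and 184.2 in Saline mice. Coverage is taken here to add up the reads at each CpG site in a region. The tiles of Slc18a2 added up to the coverage of its gene region (678.2 in Amphetamine mice). So did those of Slc18a1, Slc6a2 and Tph2, while in the other genes the tiles summed to more. Such sums would also hold for a plain count of reads, so that this reading was not tested. Of the 83 regions, 61 had reads in all 11 mice, and 10 repeated the values and coverage of another region of the same gene, which left 78 distinct measurements. The promoters of some pancreatic markers were low in both groups (Pdx1 4.51% in Amphetamine and 3.25% in Saline mice, Ptf1a 3.20% and 3.56%, Nkx6-1 3.48% and 4.39%, Isl1 5.15% and 5.48%), as was that of the duct marker Sox9 (4.06% and 4.36%). Others were not: Neurod1 had 13.1% and 5.07%, Gcg 80.0% and 90.0%, Krt19 66.1% and 40.2%, and Krt7 66.7% and 50%. Krt7 had reads in 3 Amphetamine and 4 Saline mice and Krt19 in 5 and 4, from 0% to 100% in each group. The other acinar promoters were Amy2a5 (94.5% and 89.3%), Cela1 (67.2% and 90.3%), Pnlip (75% and 85%) and Bhlha15 (56.25% and 18.75%). Of these only Amy2a5 had reads in all mice. Of the listed marker promoters, 2 of 5 acinar, 2 of 5 endocrine, 2 of 3 duct, 0 of 1 blood, 1 of 3 neuronal or glial and 1 of 3 mesenchymal ones were higher in Amphetamine mice. In none of the lists of acinar, endocrine, duct, blood, neuronal, mesenchymal and liver markers did a promoter or gene region with reads in all mice separate the groups, which over all autosomal features happened in 0.407% of promoters and 0.322% of genes, so that 0 among so few is near the background. Methylation at these genes does not measure their expression, and their part in the results was not tested.

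Slc18a2 (ENSMUSG00000025094, plus strand of chromosome 19, mm10) encodes Vmat2, the transporter that fills vesicles with serotonin, dopamine and noradrenaline. Its promoter spans chr19:59259378-59261377, and its CpG island chr19:59260852-59261467. Both are shown in part below, because the reads of the promoter came from the island. The first line is the 250 bases before the start (chr19:59260628-59260877) and the second the first 300 bases of intron 1 (chr19:59261019-59261318), both on the plus strand of GRCm38.p6, with the start taken from RefSeq. Capitals mark CpG sites no more than 50 bp from a cutting site of either enzyme, which RRBS reads can reach.
Slc18a2 upstream: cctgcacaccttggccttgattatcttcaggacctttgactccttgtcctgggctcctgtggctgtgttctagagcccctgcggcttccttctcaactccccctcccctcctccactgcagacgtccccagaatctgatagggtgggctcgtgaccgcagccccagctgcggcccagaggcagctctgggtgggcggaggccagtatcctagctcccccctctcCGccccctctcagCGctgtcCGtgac
Slc18a2 intron 1: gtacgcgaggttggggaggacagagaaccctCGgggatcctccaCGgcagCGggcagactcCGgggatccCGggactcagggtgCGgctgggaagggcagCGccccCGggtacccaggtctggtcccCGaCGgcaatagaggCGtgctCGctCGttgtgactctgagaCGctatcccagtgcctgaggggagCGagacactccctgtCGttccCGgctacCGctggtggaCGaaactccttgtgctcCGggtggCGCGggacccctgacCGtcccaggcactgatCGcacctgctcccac
The upstream stretch held 9 CpG sites, of which 3 were within reach, and the intron held 26, of which 24 were. The island as a whole held 54 CpG sites, 38 of them within reach, and these ran from position 59260852 to 59261304, across exon 1 and intron 1. The promoter held 64 CpG sites against a median of 58 over all promoters, and 39 within reach against a median of 31. The GC-box motif GGGCGG, counted on both strands, occurred 2 times in the promoter and in 68.8% of all promoters.

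Methylation of the Slc18a2 promoter was low in both groups and higher after amphetamine. In Amphetamine mice it was 4.13% ± 0.646 (SD, n = 5), with the lowest mouse at 3.16% and the highest at 4.63%. In Saline mice it was 0.224% ± 0.369 (SD, n = 6), with a lowest value of 0% and a highest of 0.870%. The difference was 3.91 percentage points with a standard error of 0.326, and a gap of 2.29 percentage points separated the lowest Amphetamine from the highest Saline mouse. The mean coverage was 321.6 in Amphetamine and 260 in Saline mice, and the least covered Saline mouse had a coverage of 58. Groups that do not overlap occurred in 0.407% of 20150 promoters on autosomes that were read in every mouse. Because this value chose the genes, nothing is read from it. Slc18a2 was the 1 promoter of 5 with reads in all mice in which the groups of the set did not overlap.

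**Figure D1:**
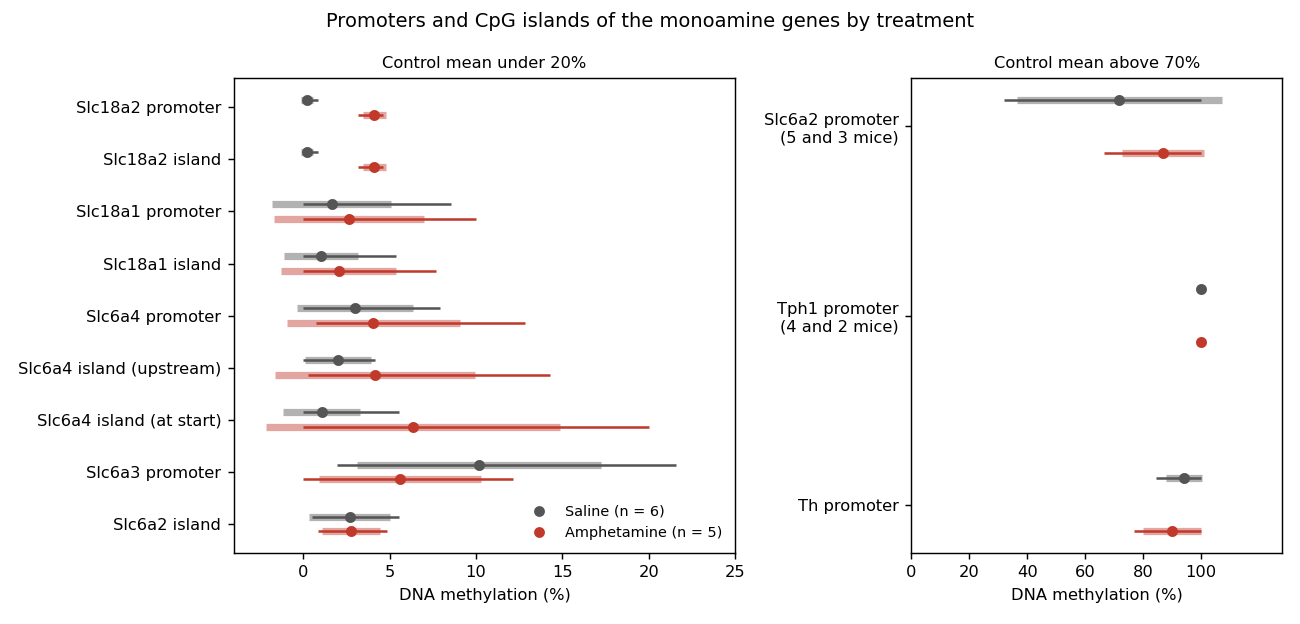
DNA methylation (%) of the promoters and CpG islands of the monoamine genes in Saline (grey) and Amphetamine (red) mice, with regions of low methylation on the left and methylated promoters on the right. Points are group means, thick bars the SD, which is symmetric and can pass 0 or 100%, and thin lines run from the lowest to the highest mouse. The ranges of the groups are apart at the Slc18a2 promoter and island, which rest on the same reads, and overlap or coincide in the other rows.

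The distribution of differences among other promoters is given for scale. Slc18a2 was chosen by this difference, so its place in the distribution is no further result. Over all 11 mice the Slc18a2 promoter averaged 2.0%, and 6931 autosomal promoters with reads in all mice averaged between 1 and 3%. Of these, 53 had a larger difference in the same direction and 43 had a difference as large in the opposite direction, around a median of -0.0267 percentage points. Of all 20150 promoters, at any level, 2540 had a larger difference in the same direction. The groups did not overlap in 26 of the 6931 with higher and in 8 with lower methylation after amphetamine. Over all 20150 promoters, 48 were higher and 34 lower without overlap.

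**Figure D2:**
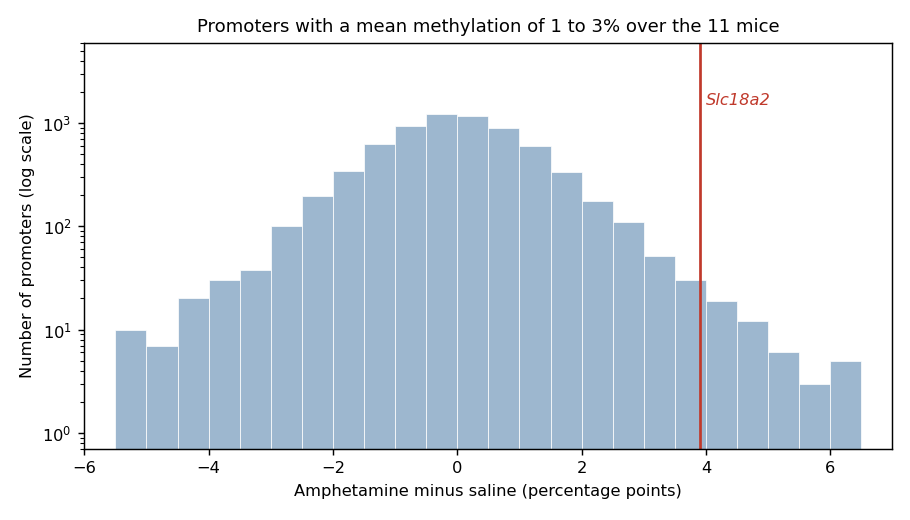
Number of promoters (log scale) by the difference in methylation between Amphetamine and Saline mice (percentage points), for the 6931 autosomal promoters with a mean of 1 to 3% over the 11 mice. The red line marks Slc18a2 at 3.91 percentage points, the value by which it was chosen, and 53 promoters lie to its right.

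The CpG island of Slc18a2 gave no second measurement of the promoter. Its means, SDs, ranges and coverage were identical to those of the promoter (4.13% against 0.224%, coverage 321.6 and 260), so that the reads of the promoter lay in the part it shares with the island. Among islands, groups without overlap made up 0.447% of 13203. The region of the antisense gene Gm29261, which runs on the other strand across the same bases, also carried these values.

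The wider regions of Slc18a2 were higher on average after amphetamine, with groups that overlapped. The first tile (chr19:59260001-59265000), which holds the whole island, had 19.0% ± 4.68 (SD, n = 5) in Amphetamine and 13.5% ± 9.73 (SD, n = 6) in Saline mice. Saline mice ranged in it from 0.870% to 25.6%, which spans the Amphetamine range of 14.7% to 24.5%. Beyond the island it added a coverage of 46.4 in Amphetamine and 80.5 in Saline mice. The next tile (chr19:59265001-59270000) had 62.4% ± 41.5 and 44.2% ± 45.7, from 0% to 100% in both groups at a mean coverage of 18.4 and 15.3. The tile at chr19:59270001-59275000 went the other way, at 85.1% ± 17.8 in 4 Amphetamine mice and 100% in each Saline mouse, at a mean coverage of 27.4 and 14.8. The tile at chr19:59275001-59280000 was methylated to 89.5% ± 6.78 and 88.6% ± 7.49. The gene region as a whole (chr19:59260878-59296012) had 35.1% ± 5.39 and 30.7% ± 8.22, a difference of 4.47 percentage points with a standard error of 4.13.

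The 5 promoters whose 4 group means (Amphetamine, Saline, female, male) were nearest to those of Slc18a2 were Nenf, Ccdc171, Gm29261, Prpf6 and B4galt2, at Euclidean distances of 0.357 to 0.537 percentage points. Gm29261 shares reads with Slc18a2 (4.48% against 0.249%). Nenf had 4.28% against 0%, and its lowest Amphetamine mouse was at 1.09%. In Prpf6 the mean of 3.90% against 0% came with an Amphetamine mouse at 0%, so that its groups met.

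Slc18a1 (chromosome 8, minus strand), the gene of Vmat1, which serves endocrine cells, had a promoter of low methylation whose groups overlapped. It had 2.67% ± 4.35 (SD, n = 5) in Amphetamine and 1.65% ± 3.43 (SD, n = 6) in Saline mice, from 0% to 10.0% and from 0% to 8.57%. The least covered Amphetamine mouse had a coverage of 8. The island (chr8:69088532-69088949) had 2.05% and 1.06%, and the first tile held the same reads as the island. The gene region was lower after amphetamine, at 28.9% ± 6.79 against 35.1% ± 6.94. Of its 4 tiles 1 was higher and 3 were lower, the tile at chr8:69070001-69075000 with 82.6% ± 16.1 against 95.0% ± 7.19.

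Slc6a4 (chromosome 11, plus strand) encodes Sert, which takes serotonin back into cells and is a target of amphetamine. Its promoter was the richest of the 7 in CpG sites (106, of which 75 were within reach) and held an island upstream of the start and one at the start. The upstream island is shown because it supplied most of the promoter's reads (the first 300 bases, chr11:76997417-76997716, plus strand, GRCm38.p6, capitals as above).
Slc6a4 upstream island: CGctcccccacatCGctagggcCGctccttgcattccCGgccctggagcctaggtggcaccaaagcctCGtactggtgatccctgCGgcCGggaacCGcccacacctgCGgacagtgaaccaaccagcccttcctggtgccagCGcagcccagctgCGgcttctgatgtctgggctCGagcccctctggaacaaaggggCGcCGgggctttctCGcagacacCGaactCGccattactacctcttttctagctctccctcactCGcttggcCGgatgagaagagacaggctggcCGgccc
All 20 CpG sites of this stretch were within reach. The promoter had 4.07% ± 5.0 (SD, n = 5) in Amphetamine and 3.01% ± 3.36 (SD, n = 6) in Saline mice. The Amphetamine mice ranged from 0.729% to 12.8% and the Saline mice from 0% to 7.92%. At a coverage of 426.6 and 409 this promoter was read more deeply than that of Slc18a2, and its SDs were wider. The upstream island had 4.15% ± 5.77 against 2.03% ± 1.93, with the highest Amphetamine mouse at 14.3%. The island at the start had 6.34% ± 8.49 against 1.08% ± 2.22, and the least covered Amphetamine mouse had a coverage of 2.

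Along the Slc6a4 gene the tiles went both ways, 4 higher and 4 lower after amphetamine. The tile at chr11:77000001-77005000, just inside the gene, had 91.9% ± 10.2 against 74.5% ± 12.8. Its Saline mice ranged from 64.6% to 99.0% and its Amphetamine mice from 75.0% to 100%. The neighbouring tile (chr11:77005001-77010000) had 29.3% ± 14.4 against 39.1% ± 20.1. The tile of the promoter had 9.96% ± 7.96 against 7.80% ± 2.01, and the gene region 60.8% ± 5.17 against 58.5% ± 12.5.

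Slc6a3 (chromosome 13, plus strand) encodes Dat, the dopamine transporter. Its promoter was lower on average after amphetamine, at 5.60% ± 4.68 (SD, n = 5) against 10.2% ± 7.06 (SD, n = 6). Amphetamine mice ranged from 0% to 12.1% and Saline mice from 1.93% to 21.6%, so that the groups overlapped. The tile of the start (chr13:73535001-73540000) had 15.9% ± 3.52 against 20.8% ± 4.15 at coverages of 657 and 476.2. The gene region had 52.2% ± 2.81 against 56.9% ± 8.29. The other 4 tiles of this gene lacked reads in 1 or more mice.

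Slc6a2 (chromosome 8, plus strand) encodes Net, the noradrenaline transporter. Its island (chr8:92960408-92961414) had 2.79% ± 1.69 (SD, n = 5) in Amphetamine and 2.68% ± 2.34 (SD, n = 6) in Saline mice, a difference of 0.101 percentage points with a standard error of 1.22. The promoter row was methylated, at 86.8% ± 14.2 and 71.8% ± 35.4, but only 3 Saline mice had reads in it, all upstream of the island. The tile of the start (chr8:92960001-92965000) had 6.66% ± 1.29 and 7.21% ± 3.92, and the gene region 26.8% ± 2.60 and 30.1% ± 4.31. The tile at chr8:92980001-92985000 was at 100% in each Amphetamine mouse and from 71.4% to 100% in Saline mice, and the next tile at 89.1% ± 18.1 and 94.7% ± 6.33.

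Tph1, which starts serotonin synthesis in peripheral endocrine cells, has a pair of RefSeq starts on the minus strand of chromosome 7, and they differed in CpG content. The 250 bases before each are shown to make this visible, the distal one at chr7:46672538-46672787 and the proximal one at chr7:46667378-46667627 (GRCm38.p6, minus strand, 5′ to 3′, capitals as above).
Tph1 distal start: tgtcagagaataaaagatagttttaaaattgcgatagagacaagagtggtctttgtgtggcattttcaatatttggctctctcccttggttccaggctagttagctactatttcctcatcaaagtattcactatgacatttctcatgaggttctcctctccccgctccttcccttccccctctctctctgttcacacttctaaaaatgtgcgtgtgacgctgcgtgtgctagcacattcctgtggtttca
Tph1 proximal start: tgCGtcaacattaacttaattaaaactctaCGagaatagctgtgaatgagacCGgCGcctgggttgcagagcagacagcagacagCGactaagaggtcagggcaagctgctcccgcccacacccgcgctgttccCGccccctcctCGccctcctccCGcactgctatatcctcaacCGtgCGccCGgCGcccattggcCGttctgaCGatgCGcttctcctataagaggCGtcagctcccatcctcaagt
The distal stretch held 5 CpG sites and none within reach, and the proximal stretch 19, of which 16 were within reach. The promoter row of the files lay at the distal start and was at 100% in the 4 Amphetamine and 2 Saline mice with reads. Its mean coverage was 11.6 and 4.67. Its sites within reach ran from position 46673256 to 46673795, upstream of the printed stretch. Methylation of the distal start itself was thus not measured, and the starts were not compared in methylation. The tile of the proximal start (chr7:46665001-46670000) had 18.2% ± 10.4 (SD, n = 5) in Amphetamine and 33.1% ± 33.1 (SD, n = 6) in Saline mice. The highest Saline mouse was at 100%, while the lowest Saline mouse was at 11.1% and the Amphetamine mice ran from 9.09% to 34.6%. The tile at chr7:46660001-46665000 had 68.1% ± 13.9 against 51.1% ± 34.2, and the gene region 48.0% ± 8.69 against 47.9% ± 17.2.

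Tph2 (chromosome 10, minus strand), the tryptophan hydroxylase found mainly in neurons, was also reported by the authors in β cells of newborn mice. It had no promoter row, and the tile of its start was not listed. The 250 bases before its start (chr10:115185023-115185272, GRCm38.p6, minus strand, capitals as above) are shown for contrast with Tph1.
Tph2 start: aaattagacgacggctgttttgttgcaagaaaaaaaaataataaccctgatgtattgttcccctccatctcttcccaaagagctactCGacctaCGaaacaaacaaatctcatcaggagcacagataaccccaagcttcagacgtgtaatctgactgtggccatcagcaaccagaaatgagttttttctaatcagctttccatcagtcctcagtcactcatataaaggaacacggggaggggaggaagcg
They held 7 CpG sites, of which 2 were within reach. The gene region was methylated to 74.5% ± 4.12 (SD, n = 5) in Amphetamine and 72.4% ± 4.23 (SD, n = 6) in Saline mice, from 67.9% to 78.2% and from 66.0% to 77.1%. Of 14 tiles 8 were higher and 6 lower after amphetamine. The tile at chr10:115175001-115180000 had 47.6% ± 12.5 against 34.7% ± 22.4, and that at chr10:115125001-115130000 had 47.2% ± 30.4 against 54.7% ± 25.8.

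Th (chromosome 7, minus strand), the first enzyme of the catecholamines, had a mean above 50% in every region and both groups. Its promoter row, at a start far upstream of the RefSeq start, had 89.9% ± 9.99 (SD, n = 5) in Amphetamine and 94.1% ± 6.16 (SD, n = 6) in Saline mice. The tile that holds the RefSeq start (chr7:142895001-142900000) had 64.4% ± 13.5 and 66.0% ± 15.3. Its CpG sites within reach ran from position 142895172 to 142899096, inside the gene, while the RefSeq start lies at 142899995. Methylation of that start itself was thus not measured. The gene region had 77.2% ± 6.69 and 80.7% ± 2.37. The tile at chr7:142910001-142915000 had 84.4% ± 13.6 and 95.3% ± 6.46, and that at chr7:142925001-142930000 had 83.6% ± 16.8 and 76.2% ± 25.4 at a mean coverage of 8.67 in Saline mice.

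Ddc (chromosome 11, minus strand), the decarboxylase shared by serotonin and dopamine synthesis, was the gene with the largest mean difference among the 9 gene regions. It had 44.4% ± 5.64 (SD, n = 5) in Amphetamine and 52.1% ± 7.83 (SD, n = 6) in Saline mice, which is 7.74 percentage points lower with a standard error of 4.07. Amphetamine mice ranged from 34.4% to 48.3% and Saline mice from 41.7% to 62.4%, so that the groups overlapped. Of its 10 tiles 8 were lower and 2 higher after amphetamine, and both higher ones lacked reads in some mice. The tile at chr11:11825001-11830000 had 19.1% ± 13.1 against 50.7% ± 22.9. Its Amphetamine mice ran from 9.52% to 40.5% and its Saline mice from 13.9% to 75.0%, at mean coverages of 73.8 and 35.7, and the least covered Saline mouse had a coverage of 4. The tiles on either side were also lower on average, at 25.6% ± 7.64 against 36.6% ± 30.7 and at 4.32% ± 6.36 against 15.1% ± 16.9. The tile of the proximal RefSeq start (chr11:11890001-11895000) had 45.05% ± 9.04 against 48.7% ± 10.9. Its CpG sites within reach ran from position 11893008 to 11893138, upstream of that start at 11890408, so that the start itself was not measured. The tile of the distal start had 84.7% ± 12.5 in 4 Amphetamine mice and 77.3% ± 25.8 in 5 Saline mice.

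**Figure D3:**
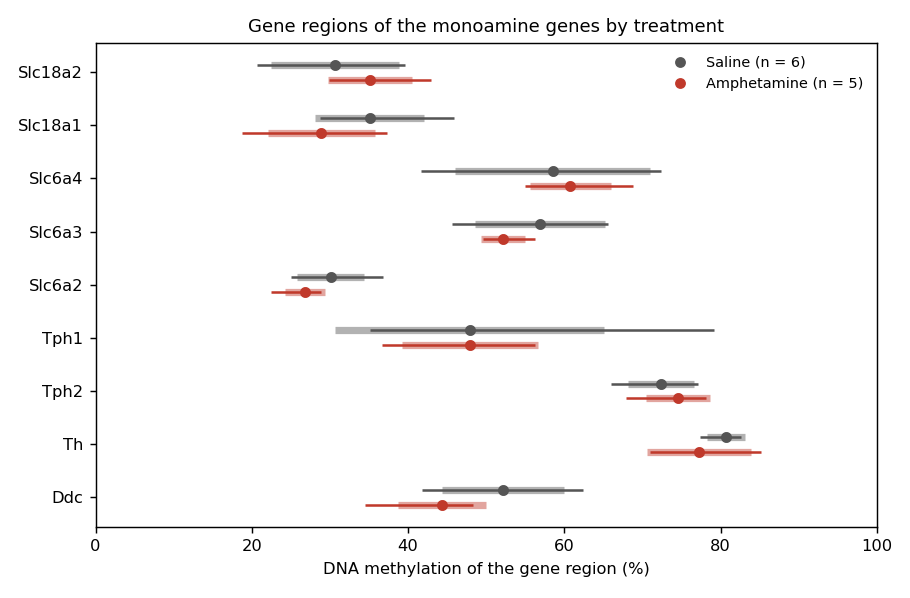
DNA methylation (%) of the 9 gene regions in Saline (grey, n = 6) and Amphetamine (red, n = 5) mice. Points are means, thick bars the SD and thin lines the range from the lowest to the highest mouse. The ranges of the groups overlap in all 9 genes.

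Set side by side, the differences of the transporters and enzymes did not share a direction. Of the 7 promoters, 4 were higher after amphetamine, 2 were lower and 1 was equal, while over all autosomal promoters 48.4% were higher and 49.6% lower. All 5 islands were higher on average, by 0.101 to 5.27 percentage points, while over all autosomal islands 48.2% were higher and 49.2% lower. In 4 of them the groups overlapped. They include the Slc18a2 island, whose reads chose the genes, and both islands of Slc6a4. The largest rise was at the start of Slc6a4, where a mouse had a coverage of 2. Slc18a2, Slc6a4, Tph2 and Tph1 were higher in their gene regions and Ddc, Slc18a1, Slc6a3, Th and Slc6a2 lower, with a median difference of -3.30 percentage points against -0.108 over all autosomal genes. The groups overlapped in all 9 gene regions, where the share without overlap is 0.322% over all genes. Of the 62 tiles 26 were higher, 34 lower and 2 equal, while over all autosomal tiles 48.0% were higher and 49.8% lower. In none of the 62 did the groups separate. For the 42 with reads in all mice, the share over all autosomal tiles read in every mouse is 0.353%, so that 0 is near the background.

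**Figure D4:**
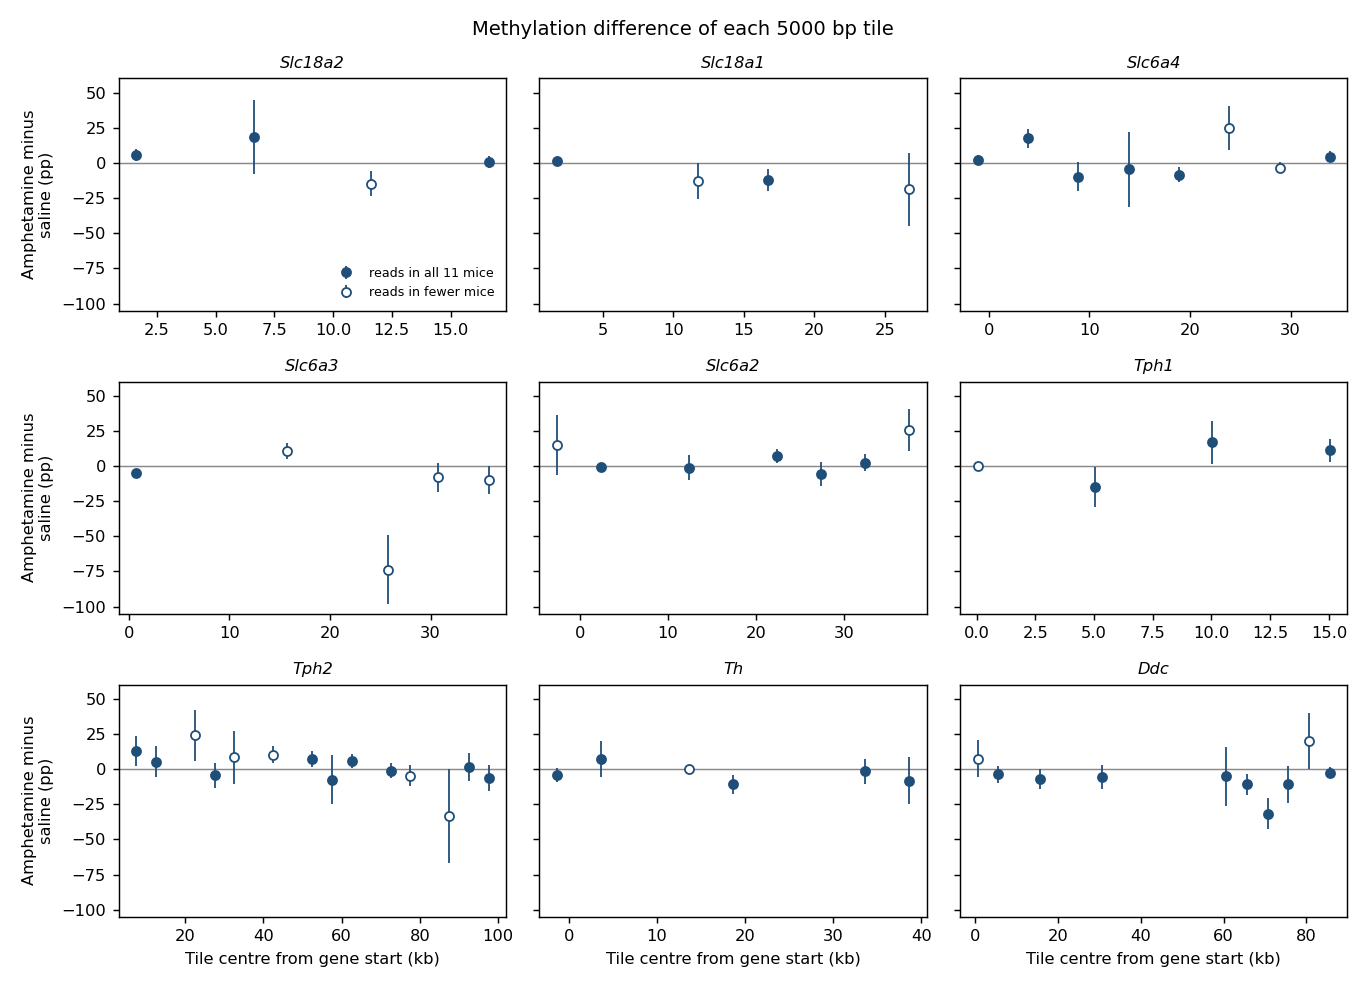
Difference in methylation between Amphetamine and Saline mice (percentage points, ± standard error) of each 5000 bp tile of the 9 genes, by the distance of its centre from the gene start (kb). Filled points have reads in all 11 mice and open points in fewer. The lowest open point, in Slc6a3, rests on 2 Amphetamine mice, both females, and 4 Saline mice, 3 of them males. A single Saline female tells treatment from sex there.

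The 6 tiles with a Saline mean under 20% comprised 4 that were higher and 2 that were lower after amphetamine. Among the 40 tiles above 70%, 18 were higher and 20 lower, and among the 16 tiles between these levels 4 were higher and 12 lower. Over tiles with reads in all mice, the median SD of Saline mice was 3.92 percentage points in the low, 22.7 in the middle and 11.3 in the high class, and that of Amphetamine mice 4.68, 13.3 and 10.8. The classes were set by the Saline means, which also enter each difference, and the shares over all tiles of a class were not computed. Nothing is therefore read from the direction within a class.

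In Saline mice the gene regions ranked from Th (80.7%) over Tph2 (72.4%), Slc6a4 (58.5%), Slc6a3 (56.9%), Ddc (52.1%), Tph1 (47.9%), Slc18a1 (35.1%) and Slc18a2 (30.7%) to Slc6a2 (30.1%). Th and Tph2 did not overlap, with the lowest mouse of Th at 77.4% and the highest of Tph2 at 77.1%. All other neighbours in this order overlapped between mice.

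Other genes of monoamine handling, on lists of catecholamine end steps, breakdown, cofactor supply, low-affinity uptake, melatonin, other vesicular transporters and other SLC6 transporters, showed no common shift. Of 41 symbols 32 had a promoter row, of which 13 were higher, 17 lower and 2 equal after amphetamine, with a median of -0.142 percentage points. In none of the 28 with reads in all mice did the groups separate, against 0.407% of all promoters, so that this count is near the background. Of 40 gene regions 20 were higher, 19 lower and 1 equal, with a median of 0.214 percentage points and no separation among the 37 with reads in all mice (0.322% of all genes). Among the relatives closest to Vmat2 in function, the 6 promoters of other vesicular transporters were higher in 2 and lower in 4 cases. The 13 promoters of other SLC6 transporters were higher in 7 and lower in 5.

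Sex, which played no part in the choice of genes, was tested over the same mice (6 females, 5 males) with limma's moderated test. No region of the 9 genes passed an adjusted p-value of 0.05 in any class: 0 of 5 promoters, 0 of 9 gene regions, 0 of 5 islands and 0 of 42 tiles with reads in all mice. Over all regions tested, 0.728% of promoters, 0.396% of genes, 1.20% of islands and 0.0378% of tiles passed, and of these 8, 5, 12 and 7 lay on autosomes. At an unadjusted p-value under 0.05 there were 0 promoters, 1 gene region, 0 islands and 3 tiles of the set. Over all regions tested 6.23% of promoters, 6.49% of genes, 6.58% of islands and 5.62% of tiles lay under it, so that these counts are near the background, and the regions are given as values only. The Slc18a2 promoter had 2.06% ± 2.01 (SD, n = 6) in females and 1.93% ± 2.43 (SD, n = 5) in males. Its difference was 0.127 percentage points (moderated standard error 1.36, limma adjusted p = 0.994). The test had no term for treatment, and each sex pooled Amphetamine and Saline mice, whose means were 4.13% and 0.224%. Its standard error therefore includes the treatment difference, so that it cannot decide on sex at this promoter.

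**Figure D5:**
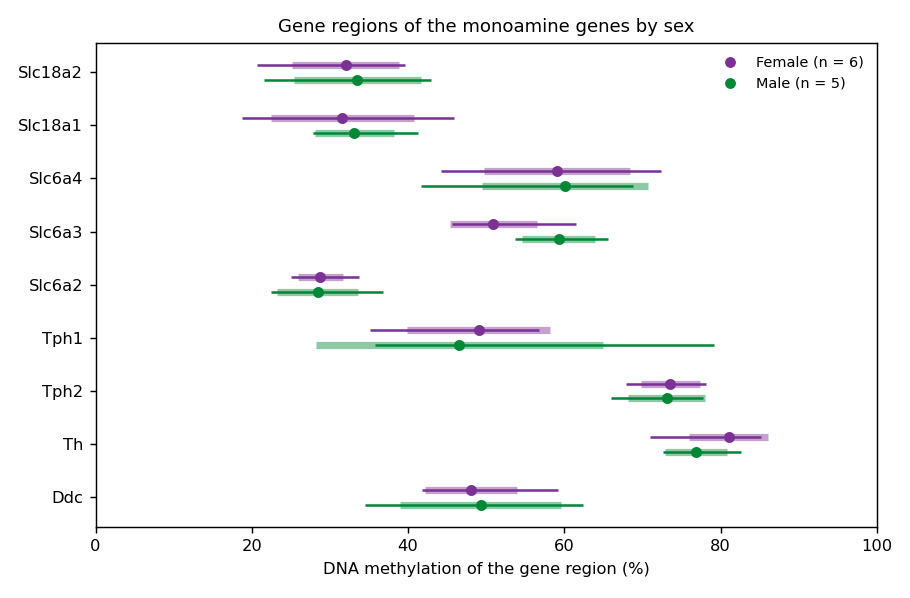
DNA methylation (%) of the 9 gene regions in female (purple, n = 6) and male (green, n = 5) mice. Points are means, thick bars the SD and thin lines the range from the lowest to the highest mouse. Slc6a3 has the widest distance between the means, 50.9% in females and 59.3% in males, and its ranges overlap.

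The Slc6a3 gene region had 50.9% ± 5.58 in females and 59.3% ± 4.69 in males, a difference of -8.38 percentage points (moderated standard error 3.06, limma unadjusted p = 0.0197, adjusted p = 0.611). The 3 tiles all lay in Tph2. The tile at chr10:115125001-115130000 had 33.2% ± 10.8 in females and 73.1% ± 23.8 in males (limma unadjusted p = 0.00222, adjusted p = 0.537). Females ran from 19.8% to 50% and males from 33.3% to 96.7%. The tile at chr10:115090001-115095000 had 97.6% ± 2.69 in females and 77.4% ± 19.8 in males, and that at chr10:115120001-115125000 had 75.7% ± 7.38 and 86.1% ± 4.84 (limma adjusted p = 0.851 for both). The Slc6a4 promoter had 5.23% ± 4.84 in females and 1.403% ± 0.861 in males, which did not pass (limma adjusted p = 0.904).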

How the data were processed

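DNA methylation by RRBS was analysed from 8 tables, 4 classes of region in each of 2 comparisons over the same 11 mice. The authors cut DNA with the enzymes MspI and TaqI, ran the NextFlow methylseq pipeline with Bismark as aligner (single-end reads, mm10) and summarised CpG sites per region and mouse with RnBeads. In the deposited tables the methylation level is a fraction averaged by the authors over the mice of a group with reads, and is given here in percent. The SD, lowest and highest mouse are deposited as a score on the same scale, here in percentage points. Coverage is a deposited signal, taken here as the sum of reads at all CpG sites of the region, averaged over mice, not normalised for depth. PCR reads carry no molecular identifiers, and library totals per mouse were not analysed here. The tables also hold the authors' differences, log2 quotients, p-values, adjusted p-values and ranks of both comparisons, which were not used.

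The members and lists were chosen with earlier results of these data known. For treatment, means, SDs, standard errors from the group SDs, and groups that do not overlap (every mouse of one above every mouse of the other, reads in all mice, autosomes) were described without a test. For sex, limma's moderated test was recomputed from group means, SDs and numbers of mice over each whole table (two-sided, Benjamini-Hochberg, no covariates). Named are the 9 members, the tiles of their starts, the tiles with the largest difference in each direction per gene among those with reads in all mice, and list genes past the same criteria. The marker promoters and the 2 tiles beside the named Ddc tile were picked after their values were seen. Mice are numbered in accession order. Sequences and starts are from RefSeq (GRCm38.p6, the assembly of mm10). The RefSeq starts at hand covered 7 of the 9 genes, without Slc18a1 and Slc6a2. R 4.3.3 with limma 3.58.1 and Python 3.11.15 with pandas 2.3.3 were used.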

Additional observations from a re-analysis of the deposited data

How the results depend on the processing

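The tables hold group values, so that leaving out each mouse in turn was not run. No paired analysis was possible because mice are numbered in accession order within each group. Depth limits tiles and promoters: of the tiles, 47 of 62 reached a coverage of 20 in Amphetamine as well as Saline mice. On the log2 scale the Slc18a2 promoter differed by 2.07 with an offset of 0.01 and by 3.71 with an offset of 0.001. In place of the promoter the 5000 bp tile gave 5.53 percentage points, with overlapping groups. The island, which holds the same reads, gave the same difference. The gene region, whose reads include those of the island, gave 4.47 percentage points with a standard error of 4.13. Neither is a separate measurement of the promoter. With reads required in all mice, 17 tiles in place of 26 were higher and 25 in place of 34 lower after amphetamine. With reads in at least 2 mice of each sex, 1 of 62 tiles passed the limma test for sex: a Slc6a3 tile (chr13:73560001-73565000) at 0% in 3 females and 98.3% in 3 males (adjusted p = 0.00115), where 0.0760% of all tiles passed. Its 2 Amphetamine mice with reads were females and its 3 males were Saline mice. The remaining female was a Saline mouse, also at 0%, so that a single mouse tells sex from treatment in it. The mean coverage was 7.33 in females and 11.6 in males. Ordinary, trended and unequal variances, autosomes alone, and the looser filter in the other classes left the counts for sex at 0. Coverage minima of 10 and 20, an SD above 0 and a wider overlap moved the tile counts by less than 1.5 times. Regions without overlap numbered 2 of 60 with a coverage minimum of 10 and 2 of 83 with reads in at least 2 mice of each group. Both times they were the Slc18a2 promoter and island, whose shared reads chose the genes, so that nothing is read from this count. Over all autosomal regions read in every mouse, 0.407% of promoters and 0.447% of islands had no overlap.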
